A study of Rattus norvegicus with 6 samples.

Results

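H/ACA box small nucleolar RNAs (snoRNAs) were examined in rat primary sertoli cells with and without 4-nonylphenol (4-NP). They were taken from the deposited small RNA table as every row that the authors typed as snoRNA and whose description contains SNORA. This gave 66 H/ACA rows out of 322 snoRNA rows and 2363 rows in all. Each row names a snoRNA or a family of related snoRNAs, and some rows join a pair of family names, such as SNORA3/SNORA45. The study asked how 4-NP, an alkylphenol with estrogen-like action, changes the RNA of sertoli cells, the somatic cells that nourish germ cells. The 3 control samples were untreated cells, and the 3 4-NP samples were treated with 0.5 mM for 24 h. All 6 samples were bulk RNA of cultured cells enriched from the testes of Sprague-Dawley rats 5 to 10 days old, and no transgene or deletion was used. Nothing in the sources says whether replicates were separate cultures or animals, so p-values measure only the spread between these samples.

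H/ACA snoRNAs fold into a pair of hairpins joined by a hinge (box H) and closed by a tail with the ACA box. With dyskerin, GAR1, NHP2 and NOP10 they form particles that turn chosen uridines of ribosomal RNA into pseudouridine, and a few members act in the cleavage of the ribosomal RNA precursor instead. Most vertebrate members are cut from introns of genes for ribosomal and other housekeeping proteins. The whole molecules are far longer than the gel window of 18 to 30 nt used for these libraries, so the reads counted here came from fragments of them, and a read count is no measure of the intact snoRNA.

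Some H/ACA genes also give rise to miRNAs, which lie within the gel window as whole molecules. Their sequences are shown because the table lists them as defined RNAs. In the RefSeq annotation of the GRCr8 assembly, 3 Snora genes overlap mature miRNAs, and 3 of the 5 mature miRNAs concerned were counted. RefSeq types these 3 genes as miRNA and not as snoRNA, so their link to H/ACA snoRNAs rests here on the gene symbol. The seed (bases 2 to 8) is in capitals, each sequence is written 5′ to 3′, and these miRNAs were chosen after the reference had been read.
rno-miR-664-3p: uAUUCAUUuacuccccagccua
rno-miR-3068-5p: uUGGAGUUcaugcaaguucuaacca
rno-miR-3068-3p: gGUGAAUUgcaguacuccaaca
rno-miR-664-3p lies in Snora36c at chr18:48150403-48150424 on the plus strand. The pair from miR-3068 lies in Snora58 on the minus strand, with the 5p arm at chr6:112811918-112811942 and the 3p arm at chr6:112811880-112811901. The 3 seeds are all different. rno-miR-664-1-5p, also of Snora36c, and rno-miR-3084d of Snora19 were not analysed here. A further miRNA of the same name, rno-miR-664-2-5p, was counted but was not among those that overlap a Snora gene. It had 4, 9 and 6 control reads and 12, 7 and 14 after 4-NP. Whether all rno-miR-664-3p reads came from Snora36c was not tested.

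The reads were scaled in 2 ways, to the reads on mature miRNAs and to the reads on all snoRNAs of the same sample. The mature miRNA reads of a sample numbered 22291892 to 23426742 among the controls and 20023200 to 22130929 among the 4-NP samples. Where no read was found, up to 3 may have been missed (0.128 to 0.150 CPM, the reads scaled to a total of 1000000 mature miRNA reads in each sample), a limit that covers counting error only. The sertoli list (2 rows, miR-202-5p nearly all of it) summed to 807 to 1195 CPM in the controls and 698 to 796 after 4-NP. Of the miRNA lists for other cells, the summed erythroid list (3 rows, miR-451-5p nearly all of it) was at 10.9 to 40.3 CPM in the controls and 59.1 to 628 after 4-NP, with 1 of the 3 rows higher in every 4-NP sample and miR-144-3p at 0.0897 to 0.731 CPM. The endothelial list (3 rows) was at 6325 to 7615 and 3234 to 3805, and the smooth muscle or myoid list (4 rows) at 120627 to 136227 and 88386 to 96696, with 2 rows of each list lower in every 4-NP sample. The myeloid list (4 rows, 8.05 to 10.6 and 8.36 to 14.1) and the striated muscle list (7 rows, 99.96 to 121 and 114 to 138) overlapped between the groups. The part of these cells in the H/ACA values was not tested, and in bulk samples fewer cells of a type cannot be told apart from less RNA per cell.

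H/ACA fragments were rare in every sample. The 66 rows together held 853, 1089 and 860 reads in controls 1, 2 and 3, and 1790, 988 and 1016 reads in 4-NP samples 1, 2 and 3. In CPM this was 36.4, 47.1 and 38.6 in the controls (40.7 ± 5.68, SD, n = 3) and 80.9, 49.3 and 46.4 after 4-NP (58.9 ± 19.1, SD, n = 3). The groups overlapped, since control 2 lay above 4-NP 3, and most of the difference between the means came from 4-NP 1. Without 4-NP 1 the 4-NP mean was 47.9, against 40.7 in the controls.

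All snoRNA reads together were also highest in 4-NP 1. They amounted to 1300, 1741 and 1829 CPM in the controls and to 3590, 1527 and 2227 after 4-NP, and 4-NP 2 lay below 2 of the 3 controls. The H/ACA share of the snoRNA reads was 2.80% (95% Wilson interval 2.62 to 2.99), 2.71% (2.55 to 2.87) and 2.11% (1.97 to 2.25) in controls 1, 2 and 3. In 4-NP samples 1, 2 and 3 the share was 2.25% (2.15 to 2.36), 3.23% (3.04 to 3.44) and 2.08% (1.96 to 2.22). These intervals treat each read as an independent draw, although reads were not collapsed to molecules and replicates differed beyond counting error. They are therefore too narrow to judge differences between samples. The mean share was thus 2.54% ± 0.375 in the controls and 2.52% ± 0.620 after 4-NP (SD, n = 3 each), a difference far smaller than the spread within either group. The 2 samples with the lowest shares, control 3 and 4-NP 3, came from different groups. The denominator is dominated by C/D box snoRNAs, the other large class, which guide methylation of ribosomal RNA. Its most abundant row, the SNORD113/SNORD114 family, alone took 11.7 to 39.8% of the snoRNA reads of a sample.

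**Figure D1:**
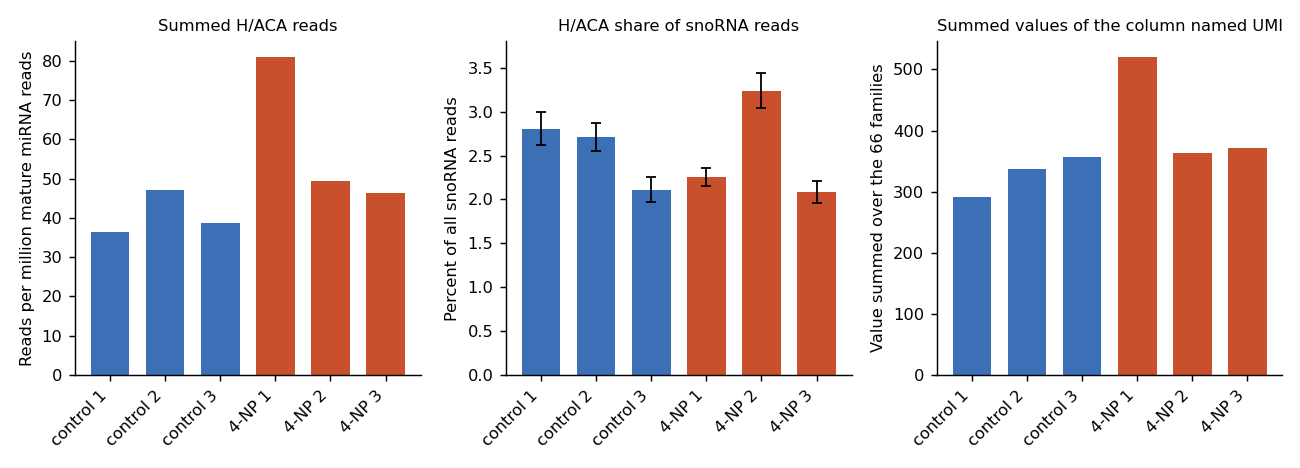
Summed H/ACA fragments in each of the 3 control (blue) and 3 4-NP (red) samples, in CPM, scaled to mature miRNA reads (left), as a percentage of all snoRNA reads with 95% Wilson intervals (middle) and as the sum of the table's column named UMI (right). 4-NP 1 is highest on the left and right, while 4-NP 2 has the highest share of snoRNA reads, and the groups overlap in the left and middle panels. The intervals treat each read as an independent draw and are too narrow to judge differences between samples.

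The reads were spread unevenly over the families. The 10 most abundant rows held 57.0% of all H/ACA reads, 17 rows averaged 20 reads or more, and 40 rows had a mean under 10. Every row had a read in at least 1 sample, 42 rows had one in every sample, and 8 rows stayed under 3 reads in each of the 6 samples. SNORA64/SNORA10, SNORA30/SNORA37 and SNORA47 had no control read and at most 3 reads in any 4-NP sample, and SNORA40 had a single control read and none after 4-NP. The number of rows with a read was 54 to 59 in the controls and 56 to 59 after 4-NP. The table gives no fragment or snoRNA length, so the order of the rows is an order of reads and not of molecules.

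SNORA73, the U17 snoRNA, which acts in the processing of the 18S ribosomal RNA precursor, ranked first by mean reads. Its counts were 41, 81 and 59 in the controls and 145, 118 and 66 after 4-NP, or 2.63 ± 0.878 and 5.15 ± 1.88 CPM (SD, n = 3 each). Control 2 lay above 4-NP 3. SNORA81, which is carried in human by an intron of the translation factor gene EIF4A2, had 52, 108 and 66 control reads and 141, 53 and 74 reads after 4-NP. SNORA14, a guide for 18S RNA, had 74, 101 and 52 and then 95, 94 and 44. SNORA54, found within Nap1l4 in the rat annotation, had 88, 78 and 54 and then 94, 45 and 94. These 4 rows differed among themselves by less than their spread over samples, with control means of 2.63 to 3.29 CPM, and the groups overlapped for each of them.

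Next in order came SNORA43, SNORA68, SNORA7, SNORA24, SNORA3/SNORA45 and SNORA21. SNORA43, a guide for 28S RNA, had 60, 55 and 61 control reads and 104, 55 and 71 after 4-NP, which in CPM placed all 4-NP samples above the controls, 4-NP 2 (2.75) only just above control 3 (2.74). SNORA7, another 28S guide, had 55, 59 and 60 reads and then 62, 39 and 40, and its control level of 2.53 ± 0.173 and 4-NP level of 2.19 ± 0.531 CPM overlapped. The 18S guide SNORA24 had 50, 59 and 35 control reads and then 71, 42 and 44. Both remaining 28S guides also overlapped between the groups, SNORA3/SNORA45 with 36, 74 and 39 reads and then 64, 39 and 30, and SNORA21 with 20, 44 and 37 and then 39, 33 and 45. Neighbours in this order from SNORA7 to SNORA3/SNORA45 had control means of 2.09 to 2.53 CPM, closer together than the SD of SNORA24 (0.494) or SNORA3/SNORA45 (0.907).

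**Figure D2:**
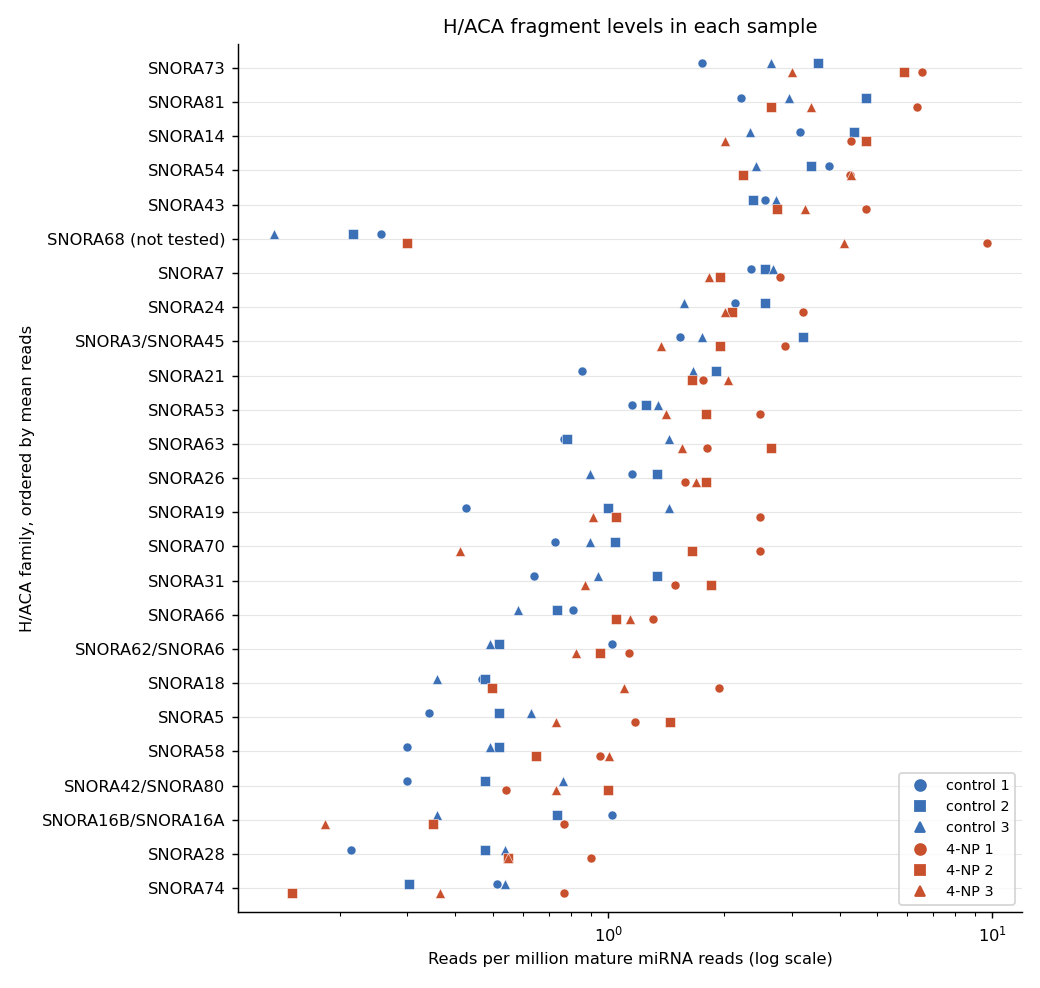
Level of the 24 tested H/ACA families and of SNORA68 in each sample, in CPM (reads scaled to mature miRNA reads) on a log axis, with families ordered by mean reads, control samples in blue, 4-NP samples in red and the replicate given by the marker shape. In 13 of the 24 tested families 4-NP 1 lies farthest to the right, and for SNORA68 only 4-NP 1 (9.67) and 4-NP 3 (4.11) lie far from the controls.

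Of the 66 H/ACA rows, 24 had enough reads for the test, which was edgeR's quasi-likelihood F test, two-sided, on all 736 small RNAs other than mature miRNAs that passed its filter on low counts. The 24 rows held 80.7% of the H/ACA reads, with means of 9.83 to 85 reads. With the scaling to mature miRNA reads, no H/ACA row passed a Benjamini-Hochberg adjusted p of 0.05 in either direction, where 14.4% of the 736 small RNAs were higher and 7.88% lower. The lowest adjusted p of an H/ACA row was 0.102. At an unadjusted p under 0.05, 4 H/ACA rows were higher and 0 lower, against 27.9% and 9.24% of all rows tested. At the study's thresholds, a fold change over 2 or under 0.5 with that p, 3 were higher and 0 lower, against 17.7% and 8.42%. DESeq2 and limma also called 0 H/ACA rows at an adjusted p of 0.05.

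The 4 rows at an unadjusted p under 0.05 were SNORA73, SNORA63, SNORA5 and SNORA18, and their values are given without a call. SNORA63 (the E3 snoRNA, a 28S guide) had 18, 18 and 32 control reads and 40, 53 and 34 after 4-NP, or 0.994 ± 0.382 and 2.00 ± 0.573 CPM (SD, n = 3 each), with no overlap. The log2 fold change was 1.01 (SE 0.37, 95% interval 0.11 to 1.90, adjusted p = 0.102 in edgeR). SNORA5, within Tbrg4 in the rat annotation, had 8, 12 and 14 reads and then 26, 29 and 16, with no overlap, a log2 fold change of 1.16 (SE 0.45) and an adjusted p of 0.114. SNORA18, a 28S guide carried by TAF1D in human, had 11, 11 and 8 reads and then 43, 10 and 24. Here 4-NP 2 (0.499 CPM) was next to the highest control (0.476), and the log2 fold change was 1.43 (SE 0.57, 95% interval 0.07 to 2.79, adjusted p = 0.120). In edgeR it was 0.87 without 4-NP 1 (adjusted p = 0.391) and 1.79 without 4-NP 2 (adjusted p = 0.0419). SNORA73 had a log2 fold change of 0.97 (SE 0.39) and an adjusted p of 0.125.

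All 3 4-NP samples lay above all 3 controls, in CPM, for 9 of the 24 tested rows, and the reverse held for 0, where 35.2% and 11.4% of the 736 rows did so. Besides SNORA63, SNORA5, SNORA18 and SNORA43, the 9 rows were SNORA53, SNORA26, SNORA66, SNORA58 and SNORA28. SNORA26, a 28S guide, had the most even 4-NP samples of the 9, with 27, 31 and 20 control reads and 35, 36 and 37 after 4-NP (1.13 ± 0.223 and 1.69 ± 0.108 CPM, log2 fold change 0.58, SE 0.26, adjusted p = 0.162 in edgeR). SNORA53, from Slc25a3, had 27, 29 and 30 reads and then 55, 36 and 31 (log2 fold change 0.60, SE 0.29). SNORA66, from the ribosomal protein gene Rpl5, had 19, 17 and 13 reads and then 29, 21 and 25 (log2 fold change 0.71, SE 0.32). SNORA43 had a log2 fold change of 0.48 (SE 0.26). The sample with the highest level was 4-NP 1 in 13 of the 24 tested rows, or 54.2%, as it was in 45.2% of all 736 rows. Control 1 had the lowest level in 11 of the 24, a count that was not made over all 736 rows.

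The fitted log2 fold changes of the 24 rows ran from -0.70 to 1.43 with a median of 0.54, and 20 were above 0. Over all 736 small RNAs the median was 0.48, with 542 above 0. Over the 85 tested C/D rows it was 0.70, with 83 above 0. The H/ACA median thus lay close to that of the whole fit. Of the C/D rows, 11 were higher and 0 lower at an adjusted p under 0.05. The lowest H/ACA value was that of SNORA16B/SNORA16A, with 24, 17 and 8 control reads and 17, 7 and 4 after 4-NP (log2 fold change -0.70, SE 0.70). Standard errors of the 24 rows were 0.25 to 0.71, and for SNORA7, among those known best, the 95% interval ran from -0.80 to 0.39.

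Scaling to the snoRNA reads instead removes a shift shared by the class. With it, no H/ACA row was called in either direction (6.66% of the 736 rows were higher and 7.74% lower at an adjusted p under 0.05), the lowest adjusted p in edgeR was 0.269, and 0 rows had an unadjusted p under 0.05. The median log2 fold change was 0.08, with 13 rows above 0 and 11 below, against -0.03 over all 736 rows and 0.17 over the C/D rows. The sign of this median turned without 4-NP 2 (-0.28) and without control 3 (-0.02). It also turned with no filter on low counts (-0.10) and with at least 10 reads in every sample (-0.08). None of the 24 had all its 4-NP samples above the controls, where 12.1% of the 736 rows did. All 4-NP samples of SNORA7 lay below its controls, the only such row among the 24 tested, where 15.5% of the 736 rows did (log2 fold change -0.73, SE 0.35, adjusted p = 0.269). The 9 rows without overlap under the first scaling therefore all overlapped under this one. The signs of SNORA81, SNORA14, SNORA54, SNORA43, SNORA24, SNORA21 and SNORA62/SNORA6 also turned between the scalings, from values of 0.16 to 0.50 to values of -0.42 to -0.06.

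**Figure D3:**
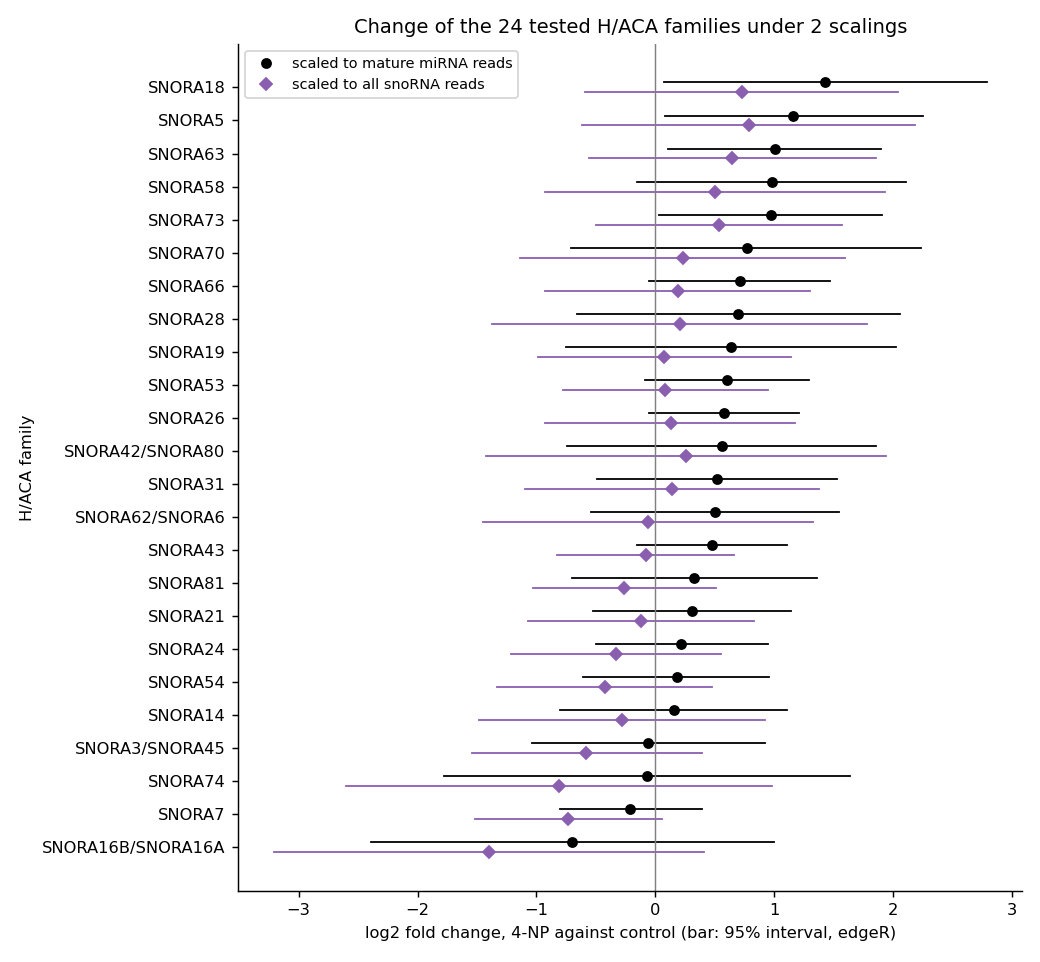
The log2 fold change of each of the 24 tested H/ACA families, 4-NP against control, with 95% intervals from edgeR, for counts scaled to mature miRNA reads (black circles) and to all snoRNA reads (purple diamonds). Under the first scaling 20 of 24 points lie above 0 and 4 intervals exclude it without adjustment, and under the second 13 lie above 0 and every interval includes it.

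The guides were also grouped by their target RNA, from lists based on the human genes, in which SNORA62/SNORA6 counts under both. Of 14 rows with 18S guides, 6 were tested, with a median log2 fold change of 0.53 under the scaling to mature reads and 0.07 under that to snoRNA reads, and 0 were called. Of 28 rows with 28S guides, 11 were tested, with medians of 0.48 and -0.08, and again 0 were called. Among the untested 18S guides, SNORA15 had 9, 4 and 3 control reads and 25, 6 and 11 after 4-NP, whereas SNORA36 had 12, 8 and 8 and then 9, 3 and 6, and SNORA44 had 7, 6 and 10 and then 11, 4 and 3. The RNAs of Cajal bodies guide modification of spliceosomal RNA, and some carry box H/ACA domains while others carry C/D domains. The rows were not sorted by domain here, so their values are not values of H/ACA RNAs. The Cajal body RNAs were 16 separate rows at 20.9, 25.3 and 20.5 CPM in the controls and 16.5, 12.3 and 15.6 after 4-NP, lower in every 4-NP sample than in any control. That order was due to 1 row, small Cajal body-specific RNA 7, with 382, 433 and 333 reads and then 178, 142 and 196 (log2 fold change -1.05, SE 0.20, adjusted p = 0.0140 in edgeR). The 15 others together were at 4.61, 6.58 and 5.61 CPM in the controls and 8.45, 5.19 and 6.62 after 4-NP, with the groups overlapping.

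Families that share a host gene in human were read at different levels. The rat annotation places several of them elsewhere, with Snora32 in Mdga2, Snora44 in Cdk5rap2, Snora29 in G3bp1 and Snora20 in Rnf111, so the groups below are those of the human genes and may not share a host in rat. Of the 6 TAF1D families, SNORA18 and SNORA1 had most of the reads, SNORA40 had 1 read in all, and mean reads differed 107-fold between the highest and the lowest family. The 6 together had 26, 27 and 26 control reads and 86, 29 and 40 after 4-NP, or 1.15 ± 0.0334 and 2.39 ± 1.31 CPM. In CPM the lowest 4-NP sample (1.45) lay above the highest control (1.17), as in 35.2% of the 736 tested rows. This sum was not scaled to the snoRNA reads, a scaling under which SNORA18 overlapped between the groups. SNORA1 had 7, 6 and 9 reads and then 23, 9 and 9. SNORA8 had 5, 3 and 3 and then 13, 7 and 0. Like SNORA18, both were highest in 4-NP 1, as were 45.2% of the 736 tested rows. The EIF4A2 families SNORA81, SNORA63 and SNORA4 had 80, 139 and 109 reads and then 188, 115 and 108 together, but SNORA4 by itself had 10, 13 and 11 and then 7, 9 and 0. The SNHG12 families SNORA16B/SNORA16A, SNORA44 and SNORA61 had 33, 24 and 18 reads and then 35, 12 and 11.

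Within SNHG7, SNORA43 and SNORA17 differed 58-fold in mean reads, although human SNHG7 carries both. Within EIF4A1, SNORA48 and SNORA67 differed 8.83-fold (12, 8 and 9 reads together in the controls, 16, 9 and 5 after 4-NP). The TCP1 pair SNORA29 and SNORA20 had at most 4 reads together in any sample. For RPS2, KANSL2, RPSA and RPL27A the table joins the pair in 1 row, and for DKC1, the gene of dyskerin itself, it lists SNORA36 only, so no comparison within these hosts was possible. SNORA2/SNORA34 of KANSL2 had 10, 8 and 5 reads and then 10, 7 and 1. SNORA62/SNORA6 of RPSA had 24, 12 and 11 reads and then 25, 19 and 18.

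A single abundant row was removed by the filter. SNORA68 ranked sixth by mean reads with 6, 5 and 3 control reads and 214, 6 and 90 in 4-NP samples 1, 2 and 3. In CPM the controls were at 0.256, 0.216 and 0.135 and the 4-NP samples at 9.67, 0.300 and 4.11. Among these libraries the high counts were confined to 4-NP 1 and 4-NP 3, where SNORA68 made up 11.96% and 8.86% of the H/ACA reads, while 4-NP 2 held as many reads as control 1. Fitted without the filter, its log2 fold change was 4.50 (SE 1.08, adjusted p = 0.0416 in edgeR) under the scaling to mature reads and 3.61 (SE 0.78, adjusted p = 0.00508) under that to snoRNA reads. SNORA68 is given here as values and not as a call.

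SNORA75, from an intron of the nucleolin gene in human, was highest in the same libraries at lower counts, with 0, 4 and 1 control reads and 50, 2 and 8 after 4-NP. Without the filter its log2 fold change was 3.55 (SE 1.45, adjusted p = 0.201 in edgeR) under the first scaling and 2.70 (adjusted p = 0.326) under the second. The C/D row SNORD26 was also highest in these libraries, with 76, 73 and 109 reads and then 3834, 112 and 1468. SNORA75 was singled out after its values were seen. Without them the untested rows held 140, 155 and 132 control reads and then 228, 113 and 115, and the summed H/ACA level was 40.4 in the controls and 53.3 CPM after 4-NP. Of the 42 untested H/ACA rows, 5 lay wholly higher after 4-NP in CPM and 0 wholly lower, where 5.29% and 4.95% of the 889 untested small RNAs did so. Besides SNORA68 these were SNORA1, SNORA38 (4, 2 and 1 reads, then 9, 5 and 11), SNORA65 (3, 3 and 3, then 7, 7 and 8) and SNORA77, which had at most 1 read in any sample. Scaled to the snoRNA reads, 0 of the 42 lay wholly higher and 6 wholly lower, where 3.04% and 6.97% of the 889 did so. The 6 were SNORA36, SNORA44, SNORA76, SNORA22, SNORA57 and SNORA55, so the direction of the rows without overlap depended on the scaling.

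A second set of columns in the table is named UMI, after the molecular identifiers in the adapters. What its values count is not stated, and they entered no test. Over the 66 rows they summed to 292, 337 and 356 for the control samples and 520, 363 and 372 for the 4-NP samples. In no H/ACA row and sample did the value exceed the reads. For the 24 tested rows the reads per unit of this column had a median of 2.62 and ran up to 10.4. For SNORA68 the column held 2, 4 and 2 and then 8, 3 and 8, so that each unit stood beside 26.8 reads in 4-NP 1 and 11.3 in 4-NP 3 but 1.25 to 3 in the other samples. For SNORA75 it held 0, 2 and 1 and then 3, 2 and 3, with 16.7 reads per unit in 4-NP 1. The 4-NP samples 1 and 3 were thus also highest for SNORA68 in this column, by a much smaller margin than in reads. SNORA27, a 28S guide within Rpl21 in the rat annotation, had 18 reads beside a value of 1 in control 2, and 10 and 3 reads in the other controls against 6, 5 and 2 after 4-NP.

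**Figure D4:**
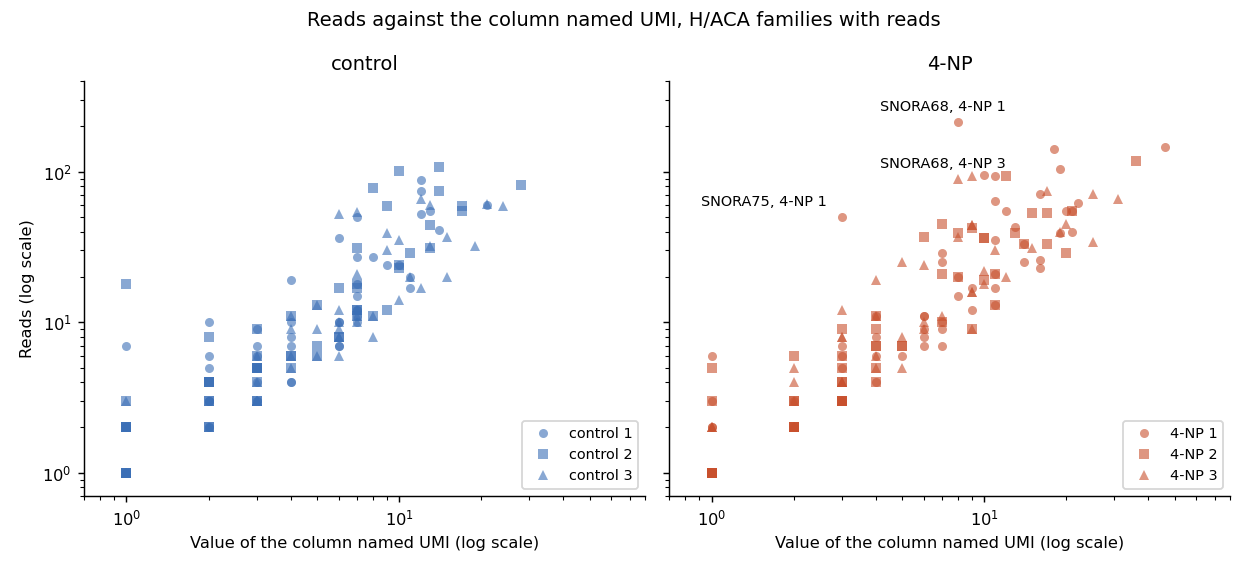
Reads of each H/ACA family against the value of the column named UMI, both on log axes, for rows with reads in the 3 control samples (left) and the 3 4-NP samples (right), with the replicate given by the marker shape. Most points follow 1 band. SNORA68 in 4-NP 1 (214 reads at a value of 8), SNORA75 in 4-NP 1 (50 reads at 3) and SNORA27 in control 2 (18 reads at 1) lie above it. SNORA68 in 4-NP 3 (90 reads at 8) lies close to SNORA54 in the same sample (94 reads at 9) and SNORA14 in control 2 (101 reads at 10).

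Of the miRNAs of H/ACA genes, whose sequences were given above, rno-miR-664-3p and rno-miR-3068-5p far outnumbered the fragments of the same families. rno-miR-664-3p had 385, 421 and 323 control reads and then 396, 355 and 216, while the SNORA36 family had 12, 8 and 8 and then 9, 3 and 6, a ratio of 32.1 to 118 per sample. Its level was 16.4 ± 1.87 and 15.2 ± 4.59 CPM (SD, n = 3 each), and edgeR gave a log2 fold change of -0.11 (SE 0.25, 95% interval -0.71 to 0.49, adjusted p = 0.795 over 549 mature miRNAs). rno-miR-3068-5p had 6202, 14804 and 7175 reads and then 5824, 16743 and 5534, against 7, 12 and 11 and then 21, 13 and 22 for the SNORA58 family, a ratio of 252 to 1288. Replicate 2 was highest in both groups, and the log2 fold change was 0.14 (SE 0.56, adjusted p = 0.892). The opposite arm, rno-miR-3068-3p, had only 22, 12 and 14 reads and then 16, 18 and 11. SNORA58 fragments were above the controls in every 4-NP sample (log2 fold change 0.98, SE 0.47, adjusted p = 0.179), whereas the levels of both miR-3068 arms overlapped between the groups.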

How the data were processed

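Small RNA libraries of 6 samples (3 control, 3 4-NP) were analysed. Per the labels, the authors excised RNA of 18 to 30 nt, ligated adapters with unique molecular identifiers and amplified the libraries, and the submitters' processing notes name HISAT2 and DESeq2. They deposited 1 table of unnormalized read counts per small RNA, with a further column named UMI whose meaning is not stated and which the authors also deposited (0.001 where a row has no reads). The genome build and the rule that assigned reads to a class are not given in the sources used here. Of 2363 rows, 734 are mature miRNAs, 1625 other small RNAs and 4 totals over genome classes. The totals (3.52 to 5.91% of the reads) entered neither library sizes nor tests. All value columns were mapped to samples, the treated ones by their number.

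Counts of the other small RNAs were fitted in R 4.3.3 with edgeR 4.0.16 (glmQLFit and glmQLFTest, group as the only term, filterByExpr defaults, Benjamini-Hochberg over 736 rows), with the mature miRNA sum or the snoRNA sum as library size. Common dispersions were 0.190 and 0.238. The alternatives used DESeq2 1.42.0, limma 3.58.1 on log2(CPM + 1), other scalings and filters, a replicate block and the omission of each sample. The procedure was tested on simulated data with the scaling to mature reads. There 36% of rows with a true log2 fold change of 1 and 17.4% of those with -1 were called. For true values of 2 and -2 these were 89.8% and 71.1%, and for unchanged rows 1.22%. A change of the smaller size was thus often missed. The simulated rows were independent, covered the levels of all 736 rows and had no shift shared by a sample. Rows lost to the filter are not counted. These rates are therefore not those of the H/ACA rows. Replicates differed from each other beyond counting error (chi-square per degree of freedom 42.0 to 640). Standard errors are the log2 fold change divided by the square root of F. Reads were not collapsed to molecules.

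Named rows were the 10 with most reads, those without overlap and with a mean of at least 20 reads, and families sharing a human host gene. SNORA5, SNORA58, SNORA28 and the other rows named by their counts fall outside this rule and were chosen after their values were seen. Members, lists and tests were chosen with earlier results of these data known. The lists of hosts and guides come from textbook knowledge of human genes. Cajal body rows were found by the word Cajal, since the text planned for them matched no row. Gene and miRNA names, host overlaps and miRNA sequences came from RefSeq (GRCr8), where 41 of the 66 rows had a Snora gene of the same number. Figures were drawn in Python 3.11.15.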

Additional observations from a re-analysis of the deposited data

How the results depend on the processing

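No H/ACA row was called under any scaling, tool or filter run except that SNORA68 was called when no filter on low counts was applied, which gave 1 higher row under either scaling. Leaving out 1 sample gave 0 to 2 higher rows with the scaling to mature reads and 0 to 1 with that to snoRNA reads. The rows were SNORA18 and SNORA68, both without 4-NP replicate 2. That sample was the only 4-NP sample with few SNORA68 reads. Omitting it let SNORA68 past the filter through its high libraries alone, so the SNORA68 call there supports nothing. SNORA68 also passed the filter when any 1 control was left out, and was not called there. Its adjusted p in edgeR was then 0.128 to 0.132 with the scaling to mature reads and 0.0903 to 0.121 with that to snoRNA reads. The median log2 fold change of 0.54 became 0.15 with TMM factors of the other small RNAs and 0.16 with DESeq2's median-ratio factors. It ran from 0.33 (without 4-NP replicate 1) to 0.67 with each sample left out. With limma on log2(CPM + 1) it was 0.26. There the scaling was unchanged, but the added 1 shrinks fold changes at the low CPM of these rows, so this value is not on the same scale. The snoRNA-scaled median of 0.08 was -0.10 with no filter, -0.08 with at least 10 reads in every sample, and -0.28 (without 4-NP replicate 2) to 0.16 with each sample left out. It was 0.18 with SNORD113/SNORD114 and SNORD26 left out of the sum. With a sample left out the filter was applied anew, so those medians cover 25 to 29 H/ACA rows under either scaling. The direction of low changes depended on the scaling. With TMM factors of the other small RNAs and with DESeq2's median-ratio factors, SNORA81 was at -0.10 under both, SNORA14 at -0.24 under both, SNORA24 at -0.20 under both, SNORA54 at -0.26 and -0.25, and SNORA21 at -0.09 and -0.07. SNORA43 under the snoRNA scaling was at 0.04 when SNORD113/SNORD114 and SNORD26 were left out of the sum, a setting added after the values were seen, as were the omission of SNORA68 with SNORA75 and the sums of the UMI column. The cause was not tested.

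Some directions rested on 1 sample. Leaving out each sample in turn under the scaling to mature reads, the log2 fold change ran from -0.12 to 0.67 for SNORA81, -0.06 to 0.45 for SNORA14, -0.02 to 0.40 for SNORA24 and -0.38 to 0.33 for SNORA3/SNORA45. Under the snoRNA scaling it ran from -0.01 to 0.81 for SNORA73, -0.39 to 0.01 for SNORA81, -0.97 to 0.03 for SNORA14, -0.22 to 0.08 for SNORA43, -0.35 to 0.17 for SNORA21, -0.26 to 0.43 for SNORA26, -0.23 to 0.24 for SNORA53, -0.05 to 0.47 for SNORA66 and -0.03 to 0.98 for SNORA63. Of 461 alternative values for 30 member results, 430 kept their direction and side of the threshold.

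The sources do not say whether the replicate numbers pair the samples. The deviations of same-numbered samples correlated at -0.04, -0.04 and 0.16, and those of differently numbered samples at -0.12 to 0.17. With so few samples these values cannot decide whether preparations were shared. With a replicate block 0 H/ACA rows were called under either scaling (median log2 fold changes 0.54 and 0.03), while calls over all small RNAs fell from 106 higher and 58 lower to 35 and 30. The filter left 42 of the 66 rows without a test, most of them under 10 reads per sample on average.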
